A study of Homo sapiens with 6 samples.

Results

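Antisense long noncoding RNAs whose gene symbols end in AS1 were followed in the human colorectal adenocarcinoma line DLD-1. Ensembl identifiers of the count table were given symbols, and genes with a symbol ending in -AS1 and whose CPM (a count rescaled so that all libraries have equal totals) was above 1 in at least 3 libraries were taken, except CYP1B1-AS1, TIPARP-AS1 and EPB41L4A-AS1. The rule found 642 genes among 16974 tested genes and 58051 genes in the table. The table held 1635 symbols of this form, of which 645 passed the CPM minimum, 990 did not, and 285 of the latter had no count in any library. The 642 genes carried 638 different symbols, because 4 symbols (DNAJC9-AS1, ITFG2-AS1, PRICKLE2-AS1 and RAET1E-AS1) belonged to 2 identifiers each. The annotation calls 637 of them lncRNA genes, and the others are pseudogenes or genes of unsettled kind.

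All 6 libraries came from cells of the genotype AID-NeonGreen-TPR, in which TPR, a protein of the nuclear basket on the nucleoplasmic side of the nuclear pore, carries an auxin-inducible degron and a fluorescent tag. Per the study's methods, both TPR alleles were tagged and the TIR1 ligase that the degron needs was expressed from the RCC1 locus, so the LMB libraries carry these edits as well. The 3 LMB libraries received 200 nM Leptomycin B, an inhibitor of the export receptor CRM1, for 3 h. The 3 LMB+auxin libraries received the same Leptomycin B and 1 mM auxin for 2 h, beginning 1 h after Leptomycin B. The sample titles of both groups give 2 h, while the study's methods give 3 h for Leptomycin B. The comparison asks how RNA abundance differs when TPR is degraded while CRM1 is inhibited. No library with auxin in cells without the degron was analysed here, so loss of TPR and auxin itself cannot be told apart, and no protein level was analysed here. Total counts ran from 28261903 to 35992425 per library. Markers of colonic epithelium (EPCAM, CDH1, KRT8, KRT18, CDX2 and VIL1) were above 1 CPM in all libraries for 6 of 6 genes, while PTPRC of leukocytes reached 0.0354 CPM and COL1A2 of fibroblasts 0.0688 CPM at most.

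An antisense RNA is transcribed from the strand opposite to another gene, and the symbol ending names it after that sense gene. Antisense transcripts often start near the promoter of the sense gene or run through its exons, and many are kept in the nucleus. Some act on their neighbour or as separate RNAs, as OIP5-AS1 does by pairing with a microRNA, but for most no function is established. Counting that ignores the strand cannot tell an antisense RNA from its sense partner wherever their exons overlap, and this bears on each value given here. Per the study's methods the library kit preserved strand information. No source used here states whether reads were then assigned by strand, against it or without it, and this was not tested. The value of an overlapping antisense gene may therefore hold reads of its sense gene. Pairs of nearly equal level, such as MIF-AS1 and MIF, are given below and have to be read with that.

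The antisense genes were weakly expressed, and in such bulk libraries less RNA in each cell and fewer cells with the RNA cannot be told apart. Their mean over the 6 libraries ran from 0.953 to 1670 CPM with a median of 4.4 CPM, beside 42.8 CPM for the sense genes and 18.5 CPM for all tested genes. In all, 348 of the 642 genes lay under 5 CPM and 10 reached 100 CPM or more. All 6 libraries were above 1 CPM for 569 genes. A further 3 genes, PHACTR2-AS1, STAT4-AS1 and ZFY-AS1, passed the minimum through the LMB group alone and so had to be lower with auxin. A sense gene was found for 640 genes, 3 of them by an older symbol, and not for HOXB-AS1 and MYL12-AS1. Exons of the antisense and the sense gene overlapped for 532 of the 640. The gene bodies alone overlapped for 83, 20 were divergent with starts within 2000 bases, and 5 lay in another arrangement. In the annotation 639 were on the opposite strand, and HILPDA-AS1 was on the same strand as HILPDA. Exons of any annotated gene were touched by 574 of the 642 genes, which left 68 that shared no exon base.

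Per kilobase of exon, the most abundant members were TUBA1B-AS1, HNRNPK-AS1, SVIL-AS1, RPL30-AS1 and MIF-AS1. TUBA1B-AS1, named for an alpha-tubulin gene, stood at 1770, 1610 and 1800 CPM in LMB replicates 1 to 3 and at 1460, 1620 and 1730 CPM in LMB+auxin replicates 1 to 3. The groups overlapped, and TUBA1B itself gave 2220, 2020 and 2270 CPM against 1890, 2040 and 2190 CPM in the same order. Per kilobase of exon this was 360 CPM for TUBA1B-AS1 and 589 CPM for TUBA1B, and 34.0% of the antisense exon bases lay inside TUBA1B exons. MIF-AS1, named for the cytokine gene MIF, was nearly a copy of its neighbour, at 221, 261 and 232 CPM in the LMB libraries and at 195, 254 and 221 CPM in the LMB+auxin libraries. MIF stood at 220, 261 and 232 CPM in the LMB libraries and at 194, 254 and 221 CPM in the LMB+auxin libraries. The libraries high for one gene were those high for the other.

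RPL30-AS1 was at 405 ± 16.9 CPM in the LMB libraries and at 405 ± 24.0 CPM in the LMB+auxin libraries (SD, n = 3 each), and 43.8% of its exon bases lay in exons of RPL30, a gene of the large ribosomal subunit. HNRNPK-AS1 was at 120 ± 6.14 and 125 ± 1.69 CPM (SD, n = 3 each), with 79.2% of its exon bases in HNRNPK, which encodes an RNA-binding protein. SVIL-AS1 shared no exon base with any gene. It was at 28.1 ± 1.06 CPM in the LMB libraries and at 26.6 ± 1.57 CPM in the LMB+auxin libraries (SD, n = 3 each), and its place in this order rests on an annotated exon length of 122 bases. None of these 5 genes was called by edgeR, with or without the replicate number in the model.

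The bar for calling a gene was an adjusted p (Benjamini-Hochberg) under 0.05 together with a change of 1.3-fold or more in either direction. Without a replicate term, the edgeR quasi-likelihood test called 0 of the 642 antisense genes, and their lowest adjusted p was 0.954. Over all tested genes 0.00589% were called. At an unadjusted p under 0.05, 24 antisense genes (3.74%) were lower in LMB+auxin, beside 3.35% of all tested genes, and 5 (0.779%) were higher, beside 1.02%. DESeq2 and limma-voom called 0 each, with 19 and 32 antisense genes at an unadjusted p under 0.05. All 3 LMB+auxin values were below all 3 LMB values for 65 antisense genes (10.1%), beside 6.63% of all tested genes, and above them for 14 (2.18%), beside 4.9%. Of all tested genes under 2 CPM, 8.59% were below and 3.05% above in this way. From 2 to 5 CPM these shares were 9.27% and 2.38%, and from 5 to 20 CPM 9.2% and 3.31%. At 20 CPM or more they were 4.02% and 6.93%.

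Libraries with the same replicate number deviated together, and with that number as a block edgeR called 13 of 642 antisense genes, or 2.02%, beside 1.18% of all tested genes. Of these, 11 fell, where 0.884% of all tested genes were called lower, and 2 rose, where 0.3% were called higher. The share called with the block varied with level. Under 2 CPM it was 2.01% of antisense genes and 1.85% of all tested genes, and from 2 to 5 CPM 4.02% and 3.02%. From 5 to 20 CPM it was 0.448% and 1.55%, and at 20 CPM or more 1.41% and 0.279%. DESeq2 with the block called 1 of the 13 and gave no adjusted p for 404 of the 642 genes. At an unadjusted p under 0.05 with the block, 89 antisense genes (13.9%) were lower, beside 11.8% of all tested genes, and 18 (2.80%) were higher, beside 8.1%. Of all tested genes under 2 CPM, 9.04% were lower and 2.85% higher at that threshold. From 2 to 5 CPM these shares were 12.3% and 2.98%, and from 5 to 20 CPM 16.0% and 4.65%. At 20 CPM or more they were 10.1% and 12.7%. A further 9 antisense genes passed the adjusted p alone. Among them were PHLDA1-AS1, at -0.35 on the log2 scale (edgeR adjusted p = 3.4e-05 with the block), and RRM1-AS1, at 0.21 (edgeR adjusted p = 0.0331 with the block), both picked after their values were seen. Called genes were of low abundance: 11 of the 13 were above 1 CPM in all libraries, and restricting to genes of at least 5 CPM left 2 calls, DUT-AS1 and IER3-AS1. Without replicate 1, 2 or 3 of both groups, the block gave 6, 3 and 6 calls.

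**Figure D1:**
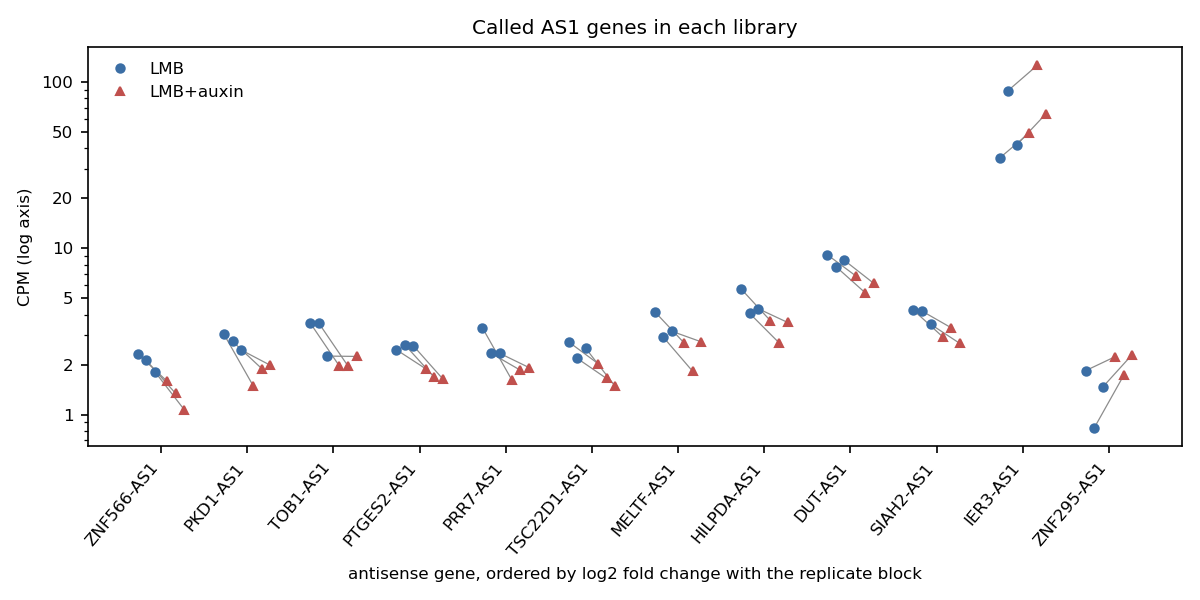
CPM on a log axis of 12 called antisense genes in each library, with circles for LMB, triangles for LMB+auxin and a grey line joining libraries of the same replicate number. DUT-AS1 lies at 5.42 to 6.79 CPM with auxin and 7.79 to 9.18 CPM without it, while the groups of IER3-AS1 overlap although each of its lines goes up. ZFY-AS1 is not drawn.

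Positions given for the called genes are those of GENCODE 44 on GRCh38. A group of the called genes is named for regulators of transcription. TOB1-AS1 (ENSG00000229980, chr17:50866679-50910774, plus strand, 4 exon blocks), named for an antiproliferative partner of mRNA deadenylases and transcription factors, was at 3.57, 3.56 and 2.25 CPM in the LMB libraries and at 1.96, 1.96 and 2.24 CPM in the LMB+auxin libraries. The groups just failed to overlap, and LMB replicate 3 lay beside the auxin libraries. Its log2 fold change was -0.58 ± 0.16 (SE, edgeR adjusted p = 0.0136 with the block), while TOB1 moved by -0.24 (edgeR adjusted p = 0.0408 with the block) without reaching the fold minimum. ZNF566-AS1 (ENSG00000267309, chr19:36489649-36491040, plus strand, 1 exon block), named for a KRAB-type zinc finger gene, was at 2.32, 2.12 and 1.81 CPM in the LMB libraries and at 1.59, 1.34 and 1.07 CPM in the LMB+auxin libraries, with no overlap. It fell by 0.65 on the log2 scale (SE 0.18, edgeR adjusted p = 0.019 with the block), and ZNF566 was at -0.29.

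TSC22D1-AS1 (ENSG00000278156, chr13:44575893-44580432, plus strand, 3 exon blocks), named for a leucine zipper gene that responds to transforming growth factor beta, was at 2.74, 2.18 and 2.50 CPM in the LMB libraries and at 2.03, 1.65 and 1.48 CPM in the LMB+auxin libraries. All auxin libraries were the lower ones, and the log2 fold change was -0.53 ± 0.16 (SE, edgeR adjusted p = 0.0398 with the block). TSC22D1 stood at 102 ± 7.69 CPM in the LMB libraries and at 109 ± 8.79 CPM in the LMB+auxin libraries (SD, n = 3 each), which is a log2 fold change of 0.09 that was not called. ZNF295-AS1 (ENSG00000237232, chr21:42009194-42055130, plus strand, 5 exon blocks), named for the zinc finger gene now called ZBTB21, was one of the 2 that rose. It was at 1.84, 0.834 and 1.47 CPM in the LMB libraries and at 2.23, 1.72 and 2.30 CPM in the LMB+auxin libraries, so the groups overlapped, with LMB replicate 2 under 1 CPM. The log2 fold change was 0.60 ± 0.18 (SE, edgeR adjusted p = 0.0327 with the block), beside 0.10 for ZBTB21, and 3.70% of its exon bases lay in ZBTB21 exons. ZFY-AS1 (ENSG00000233070, chrY:2966844-3002626, minus strand, 4 exon blocks), named for a zinc finger gene of the Y chromosome, averaged 1.33 ± 0.154 CPM in the LMB libraries and 0.733 ± 0.232 CPM in the LMB+auxin libraries (SD, n = 3 each). It is the called gene that passed the CPM minimum through LMB alone, and its log2 fold change of -0.85 (edgeR adjusted p = 0.014 with the block) has to be read with that.

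Enzyme genes gave their names to 3 called genes. DUT-AS1 (ENSG00000259488, chr15:48312353-48331856, minus strand, 4 exon blocks), named for the dUTPase that keeps uracil out of DNA, was the best measured of the lower genes, at 9.18, 7.79 and 8.48 CPM in the LMB libraries and at 6.79, 5.42 and 6.17 CPM in the LMB+auxin libraries. The groups were apart, and the replicate pairs gave log2 ratios of -0.43, -0.52 and -0.45. It fell by 0.47 on the log2 scale (SE 0.10, edgeR adjusted p = 0.00056 with the block). DUT, at 95.8 ± 5.65 CPM in the LMB libraries and at 96.4 ± 8.08 CPM in the LMB+auxin libraries (SD, n = 3 each), had a log2 fold change of 0.01 that turned to -0.002 when libraries were scaled by their size alone, although 11.3% of the DUT-AS1 exon bases lay in DUT exons. PTGES2-AS1 (ENSG00000232850, chr9:128128529-128130628, plus strand, 1 exon block) starts 67 bases from PTGES2, a prostaglandin E synthase gene, runs the other way and shares no exon base with any gene. It was at 2.46, 2.63 and 2.59 CPM in the LMB libraries and at 1.89, 1.68 and 1.64 CPM in the LMB+auxin libraries, again with no overlap. Its log2 fold change was -0.56 ± 0.16 (SE, edgeR adjusted p = 0.0257 with the block), and that of PTGES2 was -0.12 (edgeR adjusted p = 0.183 with the block). PTGES2-AS1 was the called gene among the 68 without exon overlap. SIAH2-AS1 (ENSG00000244265, chr3:150761937-150873554, plus strand, 3 exon blocks), named for a ubiquitin ligase of the hypoxia response, was at 4.26, 4.20 and 3.50 CPM in the LMB libraries and at 2.94, 3.33 and 2.68 CPM in the LMB+auxin libraries. The lowest LMB value was LMB replicate 3, still above all auxin libraries, and the gene fell by 0.42 on the log2 scale (SE 0.13, edgeR adjusted p = 0.0444 with the block) where SIAH2 was at -0.19.

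Membrane protein genes lent their names to PKD1-AS1, MELTF-AS1 and PRR7-AS1. PKD1-AS1 (ENSG00000259933, chr16:2091436-2095433, plus strand, 4 exon blocks), named for polycystin 1, was at 3.05, 2.76 and 2.45 CPM in the LMB libraries and at 1.49, 1.89 and 1.98 CPM in the LMB+auxin libraries, with no overlap. Its log2 fold change was -0.61 ± 0.16 (SE, edgeR adjusted p = 0.0123 with the block). PKD1 moved the same way, from 71.9 ± 4.66 to 56.7 ± 3.49 CPM (SD, n = 3 each), or by -0.34 on the log2 scale (edgeR adjusted p = 3.7e-06 with the block), under the fold minimum. Near-identical PKD1 pseudogenes lie on the same chromosome, which makes both values uncertain. MELTF-AS1 (ENSG00000228109, chr3:196999460-197004744, plus strand, 6 exon blocks), named for melanotransferrin, was at 4.16, 2.92 and 3.17 CPM in the LMB libraries and at 2.70, 1.82 and 2.74 CPM in the LMB+auxin libraries. No auxin library reached the LMB values. MELTF was at 4.63 ± 1.22 and 3.54 ± 0.833 CPM (SD, n = 3 each), and with 44.9% of MELTF-AS1 exon bases inside MELTF exons the pair had log2 fold changes of -0.49 (edgeR adjusted p = 0.0289 with the block) and -0.37 (edgeR adjusted p = 0.0798 with the block). PRR7-AS1 (ENSG00000246334, chr5:177438503-177447982, minus strand, 7 exon blocks), named for a proline-rich membrane protein, was at 3.33, 2.34 and 2.34 CPM in the LMB libraries and at 1.62, 1.85 and 1.92 CPM in the LMB+auxin libraries. Here LMB replicate 1 stood above the rest, and the fall of 0.55 on the log2 scale (SE 0.16, edgeR adjusted p = 0.0299 with the block) came with -0.34 for PRR7 (edgeR adjusted p = 0.0308 with the block). Without replicate 1 of both groups, these were -0.308 for PRR7-AS1 and -0.181 for PRR7.

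The remaining 2 called genes followed sense genes that were called themselves. HILPDA-AS1 (ENSG00000240758, chr7:128455937-128469197, plus strand, 4 exon blocks), named for a lipid droplet protein induced by hypoxia, was at 5.72, 4.07 and 4.34 CPM in the LMB libraries and at 3.68, 2.71 and 3.59 CPM in the LMB+auxin libraries. HILPDA was at 19.3, 13.6 and 16.8 CPM in the LMB libraries and at 13.2, 10.3 and 11.9 CPM in the LMB+auxin libraries. Neither gene had overlapping groups, and both fell by 0.49 on the log2 scale (edgeR adjusted p = 0.00858 and 2.7e-06 with the block). The annotation puts HILPDA-AS1 on the HILPDA strand, so even counting by strand would not separate the 28.1% of its exon bases that they share. IER3-AS1 (ENSG00000272273, chr6:30742757-30743638, plus strand, 1 exon block), named for an immediate early gene of stress and growth signalling, was at 35.0, 89.3 and 42.1 CPM in the LMB libraries and at 49.3, 127 and 64.8 CPM in the LMB+auxin libraries. Replicate 2 was far above the others in both groups, and the groups overlapped, yet the pairs gave log2 ratios of 0.49, 0.51 and 0.62. The log2 fold change was 0.54 with an SE of 0.44 without the block (edgeR adjusted p = 0.954) and of 0.05 with it (edgeR adjusted p = 2.9e-14). IER3, at 114, 265 and 131 CPM in the LMB libraries and at 157, 362 and 207 CPM in the LMB+auxin libraries, rose by 0.52 with the block (edgeR adjusted p = 2.8e-16), and 49.9% of the IER3-AS1 exon bases lay inside it. IER3-AS1 was the gene that DESeq2 with the block called (adjusted p = 7.7e-14).

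**Figure D2:**
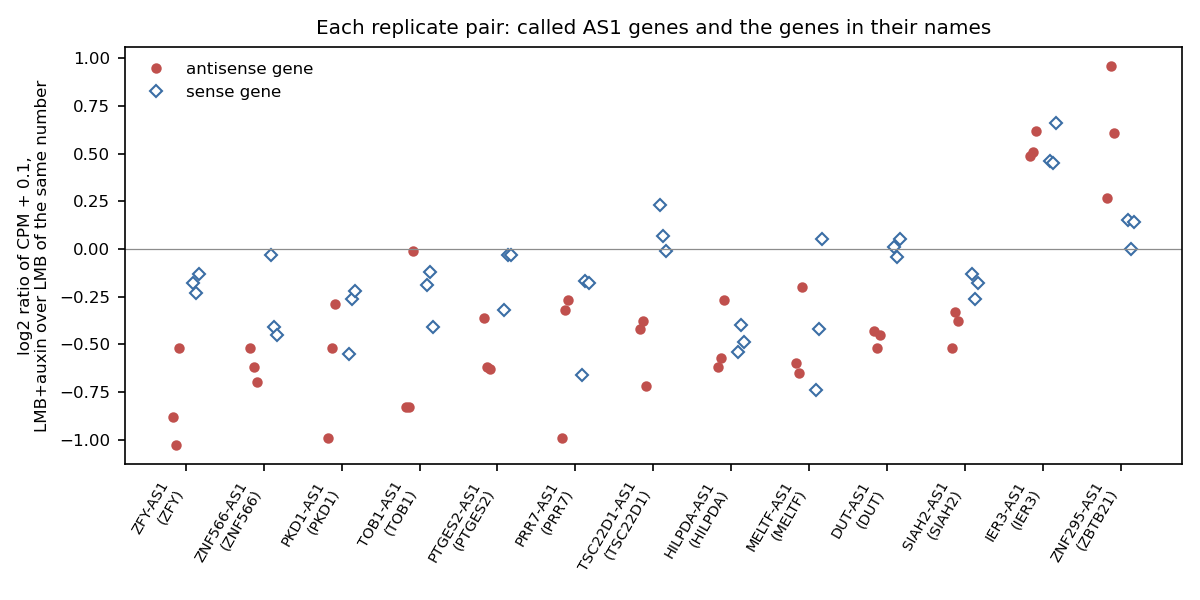
Log2 ratio of LMB+auxin over LMB (CPM with 0.1 added) in each of 3 replicate pairs for the 13 called antisense genes (filled circles) and the genes in their names (open diamonds). The points of IER3-AS1 and IER3 all lie between 0.45 and 0.66, while those of DUT-AS1 lie at -0.43 to -0.52 and those of DUT near 0.

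Promoter windows are shown for 3 called genes that fell, whose window held no coding exon and at least 1 motif match. RefSeq windows on GRCh38.p14 reach from 250 bases before to 50 bases after the start and were found for 464 of the 638 symbols. Searched on both strands were the TATA box as TATAAA, the CCAAT box by those letters, the E-box as CACGTG, the GC box as GGGCGG and the AP-1 site as TGANTCA, and no match of one overlapped a match of another in the windows printed. The windows of PRR7-AS1 (chr5:177447895-177448194, minus strand), SIAH2-AS1 (chr3:150761687-150761986, plus strand) and TOB1-AS1 (chr17:50866429-50866728, plus strand) read as follows, with motif matches in capitals.
PRR7-AS1: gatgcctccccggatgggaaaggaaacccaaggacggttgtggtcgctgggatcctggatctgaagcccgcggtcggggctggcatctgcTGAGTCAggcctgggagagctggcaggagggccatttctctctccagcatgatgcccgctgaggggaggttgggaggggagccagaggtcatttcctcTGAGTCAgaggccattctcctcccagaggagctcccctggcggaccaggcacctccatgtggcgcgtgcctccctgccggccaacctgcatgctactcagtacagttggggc
SIAH2-AS1: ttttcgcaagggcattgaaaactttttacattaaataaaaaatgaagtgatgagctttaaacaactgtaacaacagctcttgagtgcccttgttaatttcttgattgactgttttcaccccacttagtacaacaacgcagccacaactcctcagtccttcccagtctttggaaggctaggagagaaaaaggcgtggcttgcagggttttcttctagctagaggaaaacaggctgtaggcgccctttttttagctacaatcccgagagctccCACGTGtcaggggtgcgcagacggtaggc
TOB1-AS1: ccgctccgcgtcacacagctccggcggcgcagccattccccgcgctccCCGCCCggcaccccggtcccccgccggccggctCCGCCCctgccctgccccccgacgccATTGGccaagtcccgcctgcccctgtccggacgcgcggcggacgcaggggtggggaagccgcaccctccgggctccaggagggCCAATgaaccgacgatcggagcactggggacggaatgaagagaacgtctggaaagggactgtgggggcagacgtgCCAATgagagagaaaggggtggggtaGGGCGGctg
PRR7-AS1 held 2 AP-1 matches, SIAH2-AS1 held 1 E-box match, and TOB1-AS1 held 3 CCAAT and 3 GC box matches. These 3 windows have no motif in common. The other windows free of coding exons, 1 of ZFY-AS1 and 3 of ZNF295-AS1, are not shown, and their sole match was a TATA box in 1 window of ZNF295-AS1. Windows of a further 6 called genes contained coding exons, are not shown either and each held a GC box match. HILPDA-AS1 and PTGES2-AS1 had no window. An AP-1 match was in 6.9% of the member windows and in 7.71% of 35116 windows over all genes, an E-box match in 7.97% and 7.26%, and a CCAAT match in 32.1% and 34.6%. GC boxes were in 55.0% of the member windows and 45.0% of all windows, and TATA boxes in 7.11% and 11.5%. Member windows held a median of 20 CpG, against 14 over all windows. The member values take 1 window for each symbol, while those over all genes take every window, also where a gene has several. The 2 sides of these comparisons are therefore counted in unlike units.

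The estimates for antisense genes leaned towards lower values. The median log2 fold change without the block was -0.044, with 391 genes (60.9%) lower and 251 higher, beside a median of -0.003 over all tested genes and 0.015 over the 600 tested sense genes. It was -0.022 without LMB replicate 1, and -0.023 among antisense genes of at least 5 CPM. The replicate pairs gave medians of -0.09, -0.02 and -0.03. Other lncRNA names leaned the same way: the median was -0.050 for 189 genes named LINC, -0.088 for 265 divergent transcripts named DT and -0.039 for all 2852 lncRNA genes. Across the pairs, 161 antisense genes (25.1%) were lower in 3 of 3 pairs and 75 (11.7%) higher, beside 20.5% and 21.4% of all tested genes. These shares of all tested genes varied with level. They were 21.6% and 11.2% under 2 CPM, and 26.0% and 10.8% from 2 to 5 CPM. From 5 to 20 CPM they were 27.0% and 13.8%, and at 20 CPM or more 15.3% and 30.9%. No test of the list was made, and these counts describe it.

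**Figure D3:**
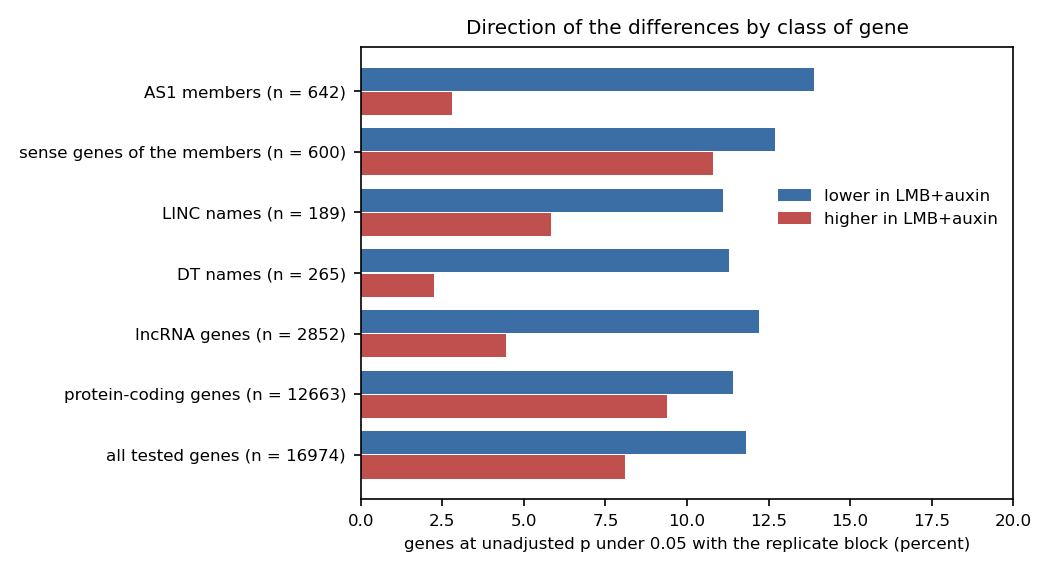
Percent of genes at an unadjusted p under 0.05 with the replicate block that were lower (blue) or higher (red) in LMB+auxin, by class of gene. Antisense genes show 13.9% lower and 2.80% higher, their sense genes 12.7% and 10.8%. The classes are not matched for level, with medians of 4.4 CPM for antisense genes and 42.8 CPM for sense genes.

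This lean went with expression level over all classes. Under 2 CPM the median log2 fold change was -0.050 for 149 antisense genes and -0.075 for all tested genes of that level. From 2 to 5 CPM it was -0.081 for 199 antisense genes and -0.057 for all, and from 5 to 20 CPM it was -0.043 for 223 and -0.033 for all. At 20 CPM or more it was -0.001 for 71 antisense genes, 0.000 for lncRNA genes and 0.023 for all tested genes. Protein-coding genes of the lowest level had a median of -0.077, so low expression and lower estimates came together in coding genes as well. The part of expression level in the values of single antisense genes was not tested.

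**Figure D4:**
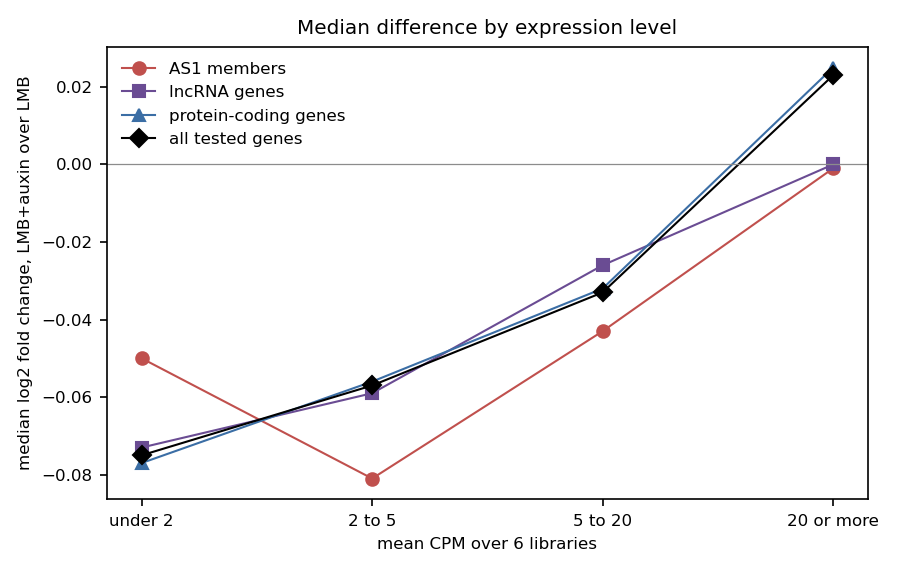
Median log2 fold change of LMB+auxin over LMB without the block, by mean CPM over 6 libraries, for antisense genes, lncRNA genes, protein-coding genes and all tested genes. Antisense genes run from -0.050 under 2 CPM to -0.001 at 20 CPM or more, and each class is higher at 20 CPM or more than at 2 to 5 CPM.

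Gene structure gave a further order. The 60 antisense genes of 1 exon block had a median of -0.107 on the log2 scale, with 45 (75.0%) lower. Those of 2 to 4 blocks (318 genes) were at -0.050 and those of 5 or more (264 genes) at -0.028. In the same order their median levels were 4.73, 4.21 and 4.46 CPM, and their median exon bases 2181.5, 1230 and 4773. Other lncRNA genes had median log2 fold changes of -0.054, -0.038 and -0.011 in that order, at median levels of 3.18, 3.41 and 4.74 CPM. The parts of expression level and exon length in this order were not tested. At an unadjusted p under 0.05 with the block, 23.3% of the members of 1 exon block were lower, 14.8% of those with 2 to 4 and 10.6% of those with 5 or more. Antisense genes named for zinc finger genes, 27 in all, had a median of -0.075 without the block. By edgeR, 0 were called without the block, where 2 had an unadjusted p under 0.05. With the block 3 (11.1%) were called, 2 lower and 1 higher. This stands beside 1.18% of all tested genes and 3.02% of those from 2 to 5 CPM, where the median level of the 27 was 4.18 CPM. Neither this group nor the split by exon blocks was part of the planned comparisons. ZFY-AS1, among the 3, passed the CPM minimum through the LMB group alone and so had to be lower.

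Each antisense gene was then set beside the gene in its name, in 604 pairs with both genes tested. The log2 fold change of the antisense gene minus that of the sense gene had a median of -0.029, and the antisense gene was the lower one in 364 pairs. Without LMB replicate 1 this median was -0.015, and without LMB replicate 2 it was -0.051. Both estimates had the same sign in 61.3% of pairs. Of 85 pairs whose antisense gene was lower at an unadjusted p under 0.05 with the block, the sense gene was lower at that threshold in 35, higher in 3 and past it in neither direction in 47. Of 17 pairs with a higher antisense gene, the sense gene was higher in 9 and lower in 1. Among the 13 called genes, 10 had a sense gene at an unadjusted p under 0.05 in the same direction, and DUT-AS1, TSC22D1-AS1 and ZNF295-AS1 did not. The sense gene was called for 2 of them and passed the adjusted p alone for 4.

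Likeness within a pair went with the exon bases the 2 genes share. Across 90 pairs with no shared exon base, Pearson's r between antisense and sense log2 fold changes was 0.12. It was 0.34 across 342 pairs with up to 25% of the antisense exon bases inside sense exons, 0.62 across 137 pairs with 25% to 75%, and 0.57 across 35 pairs with more than 75%. These are descriptions across genes, which are not independent replicates, and the 2 genes of a pair share libraries and, where exons overlap, may share reads. Restricted to antisense genes of at least 5 CPM, r was 0.95 over 16 pairs with more than 75% shared and -0.30 over 19 pairs with none. The median absolute difference within a pair was 0.17 on the log2 scale with no shared base and 0.05 with more than 75%.

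The levels followed the same order. Per kilobase of exon, the antisense gene reached a median of 0.184 times the sense level where no exon base was shared, 0.288 times with up to 25%, 0.79 times with 25% to 75% and 1.56 times with more than 75%. An antisense gene that lay almost wholly inside sense exons thus had a level of the same order as the sense gene itself. How many of the counts of an overlapping antisense gene came from its own strand could not be read from this table.

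**Figure D5:**
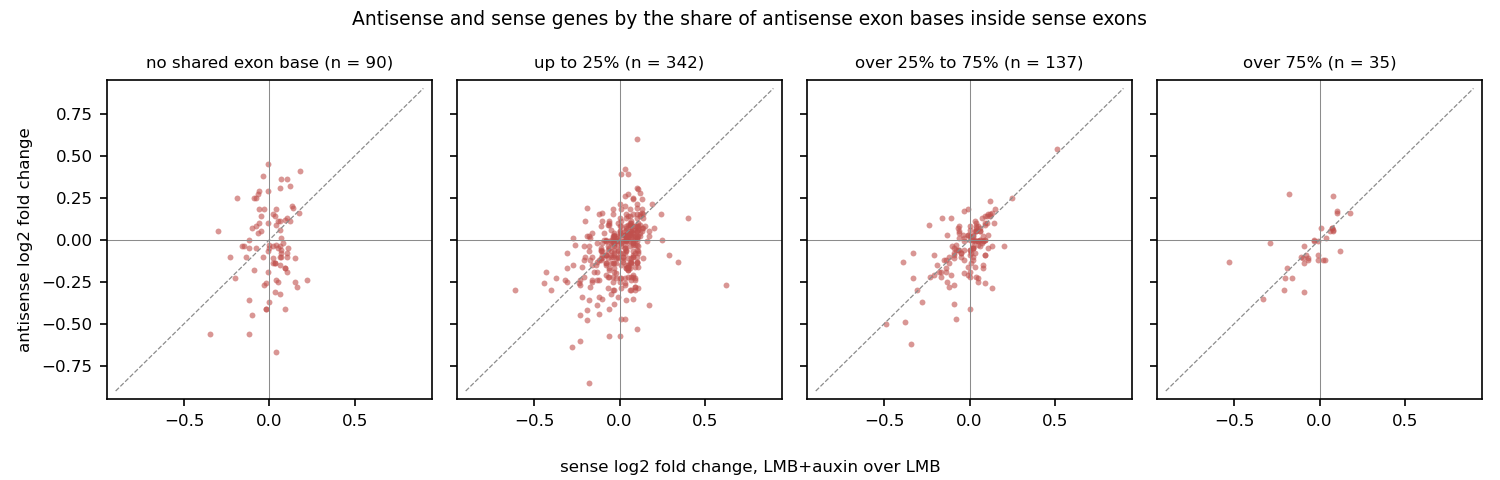
Log2 fold change without the block of antisense genes against their sense genes in 604 pairs, in 4 panels by the share of antisense exon bases inside sense exons. The dashed line marks equal values, and the cloud around it tightens from r = 0.12 with no shared base to 0.62 with 25% to 75%.

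Both genes passed an unadjusted p of 0.05 with the block in 44 pairs of the same sign and 4 of opposite sign, the former being 35 with both lower and 9 with both higher. The opposite pairs were FKBP14, FUT8, THAP9 and BAZ1A. THAP9-AS1, named for a transposase-derived gene, was at 28.7 ± 5.16 CPM in the LMB libraries and at 32.7 ± 7.78 CPM in the LMB+auxin libraries (SD, n = 3 each), with log2 ratios of 0.26, 0.07 and 0.18 in the pairs. THAP9 was at 12.6 ± 1.91 and 11.0 ± 1.55 CPM (SD, n = 3 each), and the log2 fold changes with the block were 0.18 (edgeR adjusted p = 0.0767) and -0.19 (edgeR adjusted p = 0.166). BAZ1A-AS1, named for a chromatin remodelling subunit, was at -0.26 (edgeR adjusted p = 0.114 with the block), while BAZ1A was at 0.09. FUT8-AS1 was at -0.29 and FUT8, a fucosyltransferase gene, at 0.13. FKBP14-AS1 was at -0.39 and FKBP14, a prolyl isomerase gene, at 0.16. Without LMB+auxin replicate 2 the value of FKBP14-AS1 was -0.153. None of these 4 antisense genes was called, and the difference within each pair was not tested.

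Antisense genes with the highest estimates in all 3 pairs, at 2 CPM or more, were IER3-AS1 and 4 that were not called. LRRC2-AS1, whose body overlaps that of LRRC2 and shares no exon base with any gene, was at 2.63, 2.98 and 2.34 CPM in the LMB libraries and at 3.48, 3.36 and 3.68 CPM in the LMB+auxin libraries. The groups were apart, with a log2 fold change of 0.41 ± 0.14 (SE, edgeR adjusted p = 0.0679 with the block), while LRRC2 was at 0.18. RAD21-AS1, named for a cohesin subunit, was at 3.45 ± 0.17 and 4.29 ± 0.435 CPM (SD, n = 3 each). PTPRG-AS1, named for a receptor tyrosine phosphatase, was at 6.74 ± 0.714 and 8.31 ± 0.69 CPM (SD, n = 3 each). HOXB-AS1, from the HOXB cluster of developmental transcription factors, was at 6.92 ± 0.554 and 8.51 ± 1.71 CPM (SD, n = 3 each). Their log2 fold changes were 0.31, 0.30 and 0.30, and the edgeR adjusted p with the block was 0.133, 0.0577 and 0.0536.

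Among the 600 sense genes, 29 had an unadjusted p under 0.05 by edgeR without the block. Lower were 4.0% and higher 0.833%, beside 3.35% and 1.02% of all tested genes. Called were 0 without the block and 5 (0.833%) with it, beside 0.00589% and 1.18% of all tested genes. Besides HILPDA and IER3, the called sense genes were SLC9A3, PRRT3 and SYT15. SLC9A3, a sodium-proton exchanger of gut epithelium, was at 19.5, 11.0 and 12.7 CPM in the LMB libraries and at 12.4, 9.71 and 10.5 CPM in the LMB+auxin libraries, and LMB replicate 1 stood apart. With the block but without replicate 1, its log2 fold change was -0.229. SLC9A3-AS1 held 40.8, 24.2 and 26.5 CPM and then 28.5, 22.9 and 22.9 CPM, the same order of libraries at a higher level. Log2 fold changes with the block were -0.38 for SLC9A3 (edgeR adjusted p = 0.00108) and -0.28 for SLC9A3-AS1 (edgeR adjusted p = 0.00451, under the fold minimum). SYT15, a synaptotagmin gene, rose by 0.62 (edgeR adjusted p = 0.045 with the block), beside -0.27 for SYT15-AS1, which stood near 1 CPM. PRRT3 fell by 0.39 (edgeR adjusted p = 0.0407 with the block), beside -0.13 for PRRT3-AS1.

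Antisense genes of the nuclear pore and of well-studied lncRNAs showed small differences. MCM3AP-AS1, named for the gene of the mRNA export scaffold GANP, was at 47.3, 45.2 and 49.3 CPM in the LMB libraries and at 45.3, 52.7 and 46.4 CPM in the LMB+auxin libraries, and the groups overlapped. Its log2 fold change was 0.03 ± 0.08 (SE) without the block, the same as for MCM3AP. It turned to -0.043 without LMB+auxin replicate 2. NUP153-AS1, named for a basket nucleoporin, was at 7.81 ± 0.377 and 7.62 ± 0.356 CPM (SD, n = 3 each), which is a log2 fold change of -0.04 ± 0.10 (SE). NUP153 was at 0.06, and NUP50-AS1 did not pass the CPM minimum. OIP5-AS1, the most studied of the list, was at 131, 124 and 124 CPM in the LMB libraries and at 149, 123 and 125 CPM in the LMB+auxin libraries. LMB+auxin replicate 1 alone stood higher, and the log2 fold change of 0.06 ± 0.08 (SE) became -0.030 without it.

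FGD5-AS1, whose sense gene was not tested, was at 113 ± 3.49 and 117 ± 4.17 CPM (SD, n = 3 each). TMPO-AS1 was at 57.0 ± 5.34 and 55.6 ± 6.38 CPM, PSMA3-AS1 at 30.4 ± 2.43 and 30.1 ± 3.58 CPM and PXN-AS1 at 38.5 ± 1.39 and 38.8 ± 1.44 CPM (SD, n = 3 each). These genes are named for a lamina-associated protein, a proteasome subunit and the focal adhesion protein paxillin, and their log2 fold changes lay between -0.04 and 0.04, within 1 SE of 0. ZEB1-AS1, named for a repressor of epithelial genes, was at 3.29 ± 0.445 and 2.68 ± 0.316 CPM (SD, n = 3 each), which is a log2 fold change of -0.30 ± 0.16 (SE) beside 0.09 for ZEB1. TTN-AS1, which runs through the gene of the muscle protein titin, was at 1.84, 1.57 and 1.95 CPM in the LMB libraries and at 2.16, 1.96 and 2.27 CPM in the LMB+auxin libraries. Its groups just failed to overlap, its log2 fold change of 0.25 ± 0.17 (SE) was equal to that of TTN, and 54.9% of its exon bases lay in TTN exons. None of these 9 genes was called with or without the block.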

How the data were processed

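Per the labels, RNA from which ribosomal RNA had been removed was sequenced; the processing notes name CASAVA 1.8.2, STAR 2.6.1c, featureCounts 1.5.2 and GRCh38, without a strand setting. The authors deposited unnormalized whole-number counts for Ensembl genes. Genes above 1 CPM in at least 3 libraries were tested in R 4.3.3 with edgeR 4.0.16 (TMM scaling, estimateDisp, robust glmQLFit, glmQLFTest), without a replicate term (the study's methods name DESeq2 and mention no such term), and Benjamini-Hochberg adjustment ran over 16974 genes. The CPM values printed were scaled by TMM, while the CPM of the filter was scaled by library totals alone. Libraries of the same replicate number in the labels had deviations from their group means correlated at 0.531, 0.691 and 0.273 over 16974 genes, those of different numbers at -0.573 to 0.146, so the numbers were taken to pair the libraries. The biological coefficient of variation was 0.0989 without and 0.0406 with the block. Alternatives were DESeq2 1.42.0, limma-voom (limma 3.58.1), other scalings and filters, and left-out libraries. The code was tested on simulated data. Symbols (for 98.1% of identifiers), positions and exon bases come from GENCODE 44, a later release than the one counted, and a shared base is one inside exons of both genes. P-values without the block measure the spread between these 6 libraries within their groups. Those with the block measure the spread that remains within the 3 replicate pairs.

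Named genes were a set of 9 well-known members (with NUP50-AS1, which did not pass, a list of 10), called members and called sense genes, the 5 members with the highest and the 5 with the lowest log2 fold change among those of one direction in 3 pairs and at least 2 CPM, the 5 most abundant per kilobase, and up to 5 pairs of either sign past an unadjusted p of 0.05. Members and lists were chosen with earlier results of these data known.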

Additional observations from a re-analysis of the deposited data

How the results depend on the processing

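The number of called antisense genes, 0 without the block, stayed at 0 with DESeq2, limma-voom, the other scalings and filters and each library left out. It became 13 with the replicate block and 1 with DESeq2 and the block. The block gave 3 to 6 when one replicate pair was left out, 11 among genes above 1 CPM in all 6 libraries, 2 among genes of at least 5 CPM, and 1 among genes that share no exon base with any gene. The last 3 settings were chosen after seeing the data. Called sense genes, 0 without the block, were 5 with the block (4 to 5 without one replicate pair), 2 with DESeq2 and the block, and 1 without the filter on low counts. The median difference within pairs was -0.055 without the block and -0.057 with it when genes sharing exons were left out, and ran from -0.051 to -0.015 over left-out libraries and pairs. The cause of these shifts was not tested. Over all tested genes the block raised the calls from 1 to 201. Depth limits the weak genes most, and 348 antisense genes lay under 5 CPM. The median of antisense genes stayed negative in each setting. It was -0.057 with library size alone, where the median of all tested genes was -0.015, -0.022 without LMB replicate 1, -0.026 with the block and without replicate 1, and -0.023 among genes of at least 5 CPM.

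Of 1055 recomputed values for 59 named genes, 52 changed sign, to values between -0.133 and 0.058, and 43 genes never did. TMPO turned to -0.004 with library size alone and -0.001 with upper-quartile factors, DUT to -0.002 with library size alone, and RPL30-AS1 to 0.006 with DESeq2 or its size factors and 0.005 with DESeq2 and the block. The other 46 came from a left-out library or pair. Over single libraries left out, the log2 fold change ran from -0.114 to 0.047 for TMPO-AS1, -0.112 to 0.058 for PSMA3-AS1, -0.068 to 0.004 for NUP153-AS1, -0.009 to 0.043 for PXN-AS1, -0.03 to 0.116 for OIP5-AS1, -0.05 to 0.03 for RPL30-AS1 and -0.043 to 0.068 for MCM3AP-AS1. Among sense genes it ran from -0.054 to 0.006 for PXN, -0.006 to 0.148 for PSMA3, -0.1 to 0.201 for OIP5, -0.051 to 0.099 for TMPO, -0.005 to 0.131 for NUP153, -0.03 to 0.079 for DUT, -0.08 to 0.234 for ZEB1, -0.03 to 0.072 for MCM3AP and -0.034 to 0.203 for ZBTB21. With the replicate block and 1 pair left out, the changed signs were 0.003 for TMPO-AS1, 0.006 and 0.002 for PSMA3-AS1, -0.019 for PXN-AS1, -0.002 for OIP5-AS1, 0.047 for RPL30-AS1, -0.069 for MCM3AP-AS1, 0.006 for PXN, -0.014 for PSMA3, -0.033 for OIP5, -0.001 and -0.009 for TMPO, -0.003 for NUP153, -0.01 for DUT, -0.133 for ZEB1 and -0.018 for MCM3AP.

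Of 33 named genes with a log2 fold change of at least 0.2 in either direction, 17 moved by over 1.5 times when a library or a replicate pair was left out. Without LMB replicate 1 the values were -0.123 for SLC9A3, -0.152 for MELTF, -0.256 for FKBP14-AS1, 0.288 for IER3 and 0.294 for IER3-AS1. Without LMB replicate 2 they were -0.092 for TOB1, 0.348 for ZNF295-AS1, 0.988 for IER3 and 1.066 for IER3-AS1. Without LMB+auxin replicate 1 they were -0.169 for BAZ1A-AS1 and -0.457 for ZNF566. Without LMB+auxin replicate 2 they were -0.153 for FKBP14-AS1, -0.175 for FUT8-AS1, -0.213 for MELTF, -0.32 for MELTF-AS1, -0.429 for TOB1, 0.096 for IER3 and 0.039 for IER3-AS1. Without LMB+auxin replicate 3 they were -0.085 for TOB1, 0.139 for HOXB-AS1, 0.161 for TTN and -0.18 for ZNF566. With the block, leaving out replicate 1 gave -0.148 for MELTF, -0.181 for PRR7, -0.229 for SLC9A3, -0.308 for PRR7-AS1 and 0.191 for PTPRG-AS1. Leaving out replicate 2 gave -0.127 for FKBP14-AS1 and -0.172 for FUT8-AS1, and leaving out replicate 3 gave 0.137 for HOXB-AS1, -0.149 for ZEB1-AS1, -0.152 for TOB1, -0.606 for MELTF and -0.655 for FKBP14-AS1.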

Other observations

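Smaller classes of overlapping transcripts were measured as well. Genes with symbols ending in AS or AS2 to AS9, 50 in all, had a median of -0.056 on the log2 scale, with 32 of them lower. With the replicate block 2 (4.0%) were called, 1 higher and 1 lower, beside 1.18% of all tested genes. Their median level was 4.75 CPM, and from 2 to 5 CPM 3.02% of all tested genes were called. The 7 overlapping transcripts named OT had a median of -0.117 with 6 lower, and the 8 intronic transcripts named IT had a median of 0.129 with 6 higher at a median level of 1.33 CPM. No gene of the OT and IT classes was called by edgeR with or without the block, where 2 OT genes and 0 IT genes had an unadjusted p under 0.05 with the block.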
